A study of Mus musculus with 6 samples.

Results

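Cartilage oligomeric matrix protein (Comp), the other four thrombospondins (Thbs1, Thbs2, Thbs3 and Thbs4), the tendon identity genes Tnmd and Scx, and the tendon and cartilage matrix genes Chad and Tnc were described in muscle lacking TFEB. These 9 genes of 12393 with a probe set of their own were chosen by name, with their TFEB KO and WT values on these same 6 arrays already known. Every probe set whose annotation names 1 of them and no other gene was taken. All 9 genes had one, 7 of them with 1 probe set and 2 of them (Thbs1 and Thbs2) with 2, which gave 11 of the 22626 probe sets measured. The differences between TFEB KO and WT muscle in these genes are therefore a description and were given no test.

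Total RNA was hybridized to Affymetrix arrays, 1 per mouse, for 3 TFEB KO and 3 wild-type (WT) C57BL/6 mice, and the tissue was muscle taken at an age of 1 month. The TFEB KO mice came from a cross of Tcfeb floxed mice with mice carrying the MLC1f-Cre transgene, whose fast myosin light chain promoter drives the recombinase in skeletal muscle fibers and is not meant for the other cells of the tissue. The sources used here do not give which muscle was taken, how much tendon it held, or whether the WT mice carried floxed alleles or Cre. The values are log2 values that the authors made with RMA, a method that corrects background, equalizes the arrays and summarizes the probes of each probe set, so a difference of 1 is a change of 2-fold.

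Thrombospondins are calcium-binding glycoproteins that cells secrete into the matrix. Thbs1 and Thbs2 form trimers and restrain blood vessel growth, whereas Thbs3, Thbs4 and Comp form pentamers, and Comp and Thbs4 are abundant in tendon, where they help collagen fibrils assemble. Scleraxis (Scx) is the transcription factor that marks cells of the tendon lineage, tenomodulin (Tnmd) is a membrane glycoprotein of mature tendon cells whose expression depends on Scx, chondroadherin (Chad) is a leucine-rich protein that binds collagen and integrins, and tenascin C (Tnc) is a matrix protein of tendon, of the junction between muscle and tendon, and of injured tissue.

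The promoters of Tnmd, Chad and Thbs4 are shown because Tnmd and Chad were lower on every TFEB KO array, whereas Thbs4, a tendon gene as well, was not. Each is the RefSeq window on GRCm38.p6 from 250 bases before to 50 bases after the annotated start, written 5′ to 3′ on the strand of the gene. Capitals mark matches on either strand to TATAA, the core of the TATA box, or to CANNTG, the E-box that factors such as Scx read. The Tnmd window lies on the plus strand at chrX:133850758-133851057, the Chad window on the plus strand at chr11:94564797-94565096 and the Thbs4 window on the minus strand at chr13:92794769-92795068.
Tnmd: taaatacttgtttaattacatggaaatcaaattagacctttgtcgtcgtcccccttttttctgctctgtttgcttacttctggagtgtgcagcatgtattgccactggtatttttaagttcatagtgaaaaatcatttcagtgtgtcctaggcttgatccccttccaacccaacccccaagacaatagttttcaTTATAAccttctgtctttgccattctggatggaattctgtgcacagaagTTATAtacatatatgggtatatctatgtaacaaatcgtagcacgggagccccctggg
Chad: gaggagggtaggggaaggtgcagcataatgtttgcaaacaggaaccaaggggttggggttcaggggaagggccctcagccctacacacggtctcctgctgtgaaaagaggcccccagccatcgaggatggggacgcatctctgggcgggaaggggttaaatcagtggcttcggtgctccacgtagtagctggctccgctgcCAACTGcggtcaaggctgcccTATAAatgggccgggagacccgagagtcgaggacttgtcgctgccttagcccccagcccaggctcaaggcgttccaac
Thbs4: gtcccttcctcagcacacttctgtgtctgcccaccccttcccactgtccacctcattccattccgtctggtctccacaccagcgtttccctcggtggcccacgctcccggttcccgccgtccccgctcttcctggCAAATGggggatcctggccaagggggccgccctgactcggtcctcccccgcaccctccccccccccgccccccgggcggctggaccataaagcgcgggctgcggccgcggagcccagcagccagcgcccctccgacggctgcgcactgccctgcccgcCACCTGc
The Tnmd window held 3 matches to TATAA, 2 of which overlap on opposite strands, and 0 to CANNTG, and its GC content was 40.0%. The Chad window held 1 match to each motif with 61.0% GC, and the Thbs4 window held 0 matches to TATAA and 2 to CANNTG with 72.0% GC. A window was found for 6 members (Thbs2, Thbs3, Thbs4, Tnmd, Chad and Tnc), with 2 for Tnc that share 221 of their bases and some of their matches. Counted by gene, 5 of the 6 held CANNTG and 4 held TATAA, against 72.3% and 24.9% of the 32851 mouse promoter windows of the same length. The letters CACGTG, the core of the CLEAR element that TFEB binds and itself 1 form of CANNTG, were in 0 of the 7 windows, against 7.15% of all windows. Comp, Thbs1 and Scx were not matched to a window. A match is a description of the letters and not of a bound site.

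Tfeb itself (chr17:47737037-47792416, GRCm38.p6, as are all gene positions below) had values of 7.10, 7.23 and 7.04 in TFEB KO muscle, against 8.61, 8.55 and 8.96 in WT muscle. The groups did not overlap, and the mean was 7.12 ± 0.10 in TFEB KO and 8.71 ± 0.22 in WT muscle (SD, n = 3 each). The difference was -1.58 on the log2 scale (standard error 0.13, adjusted p = 0.0079 by limma), or 2.99-fold lower. The sources used here do not say whether its probe set falls within the deleted exons.

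The 6 arrays correlated closely, with r between 0.992 and 0.997 within a group and between 0.989 and 0.993 across groups. One array stood apart for connective tissue genes. Of 30 measured genes of a tendon and ligament matrix list, 19 (63.3%) read highest on the array of TFEB KO mouse 1, whereas 18.8% of all genes did. The 10 muscle fiber markers, such as Acta1 and Ckm, had a log2 summed level of 17.66 to 17.72 in TFEB KO and 17.70 to 17.73 in WT muscle, so the tissue read as skeletal muscle in both groups. In bulk tissue, fewer cells of a type and less RNA per cell cannot be told apart.

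Across the 11 member probe sets, 5 were lower on every TFEB KO array than on any WT array (1 each of Comp, Thbs2, Tnmd, Chad and Tnc), 0 were higher on every TFEB KO array, and 6 overlapped. Of all probe sets, 13.3% were lower and 9.77% were higher without overlap in TFEB KO muscle. As a description only, since this contrast was known when the genes were picked, 2 of the 11 (Comp and Tnmd) were past the threshold of the fit, against 1.60% of all probe sets. Comp was past it with any 1 array left out, and Tnmd was not with any of the 6 left out. With all arrays Tnmd lay just inside the threshold and Chad just outside it. The median difference over the brightest probe set of each member was -0.14, against -0.01 over all 12393 genes.

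**Figure D1:**
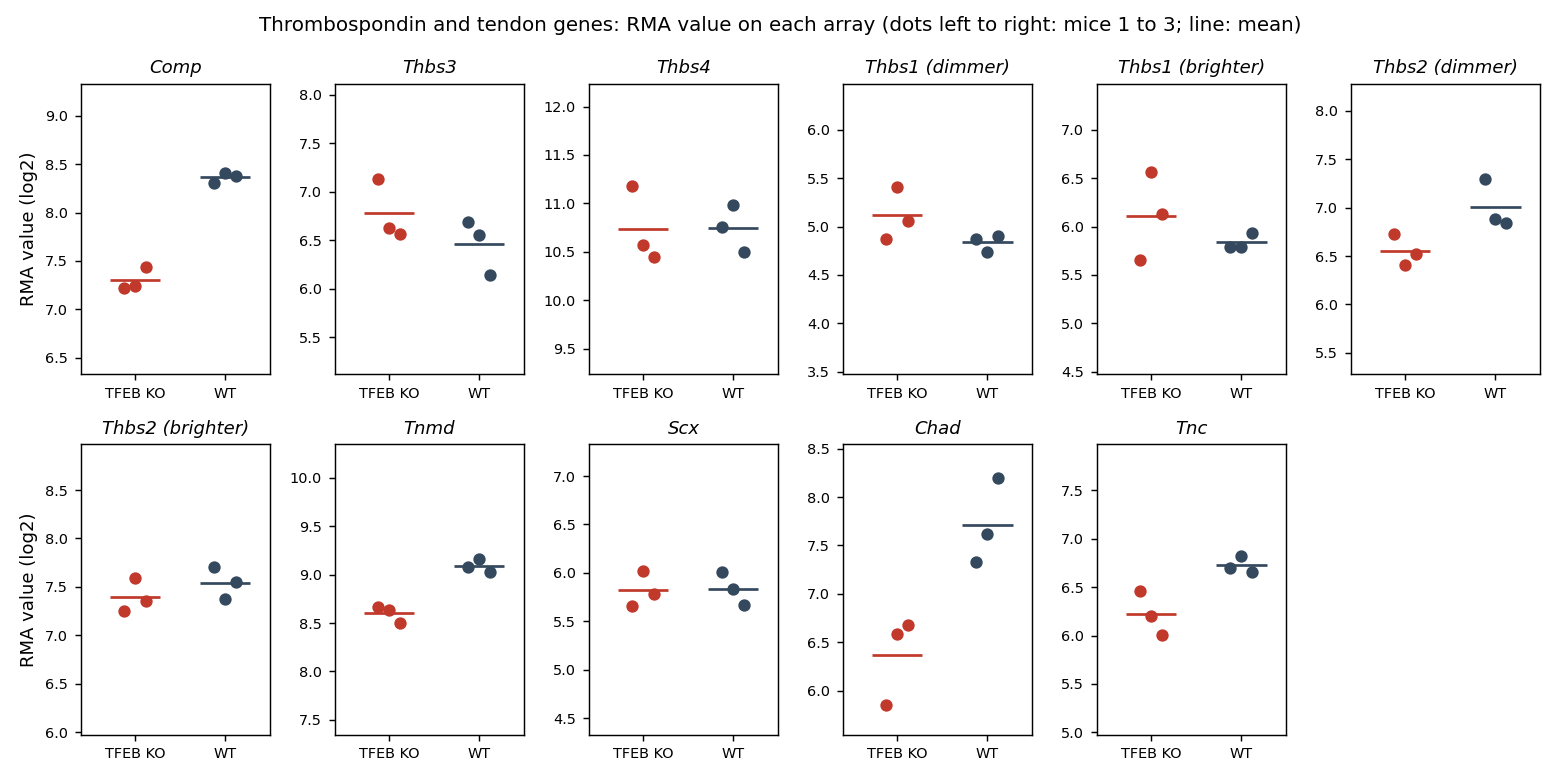
Log2 RMA value (vertical axis, each panel spanning the same range) of each of the 11 member probe sets in TFEB KO muscle (red, left) and WT muscle (blue, right). Each dot is 1 mouse and the line is the mean of 3. Comp, Tnmd, Chad, Tnc and the dimmer Thbs2 probe set are separated between the groups, whereas the other 6 probe sets overlap.

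Comp, the pentameric thrombospondin of cartilage and tendon (chr8:70373548-70382066), read 7.22, 7.24 and 7.44 in TFEB KO muscle, against 8.31, 8.41 and 8.38 in WT muscle. All 3 TFEB KO arrays lay below all 3 WT arrays, with a gap of 0.86 between the nearest values, and the WT arrays were tightly grouped. The mean was 7.30 ± 0.12 in TFEB KO and 8.36 ± 0.05 in WT muscle (SD, n = 3 each), a difference of -1.07 (standard error 0.10), or 2.09-fold lower. The difference lay between -1.14 and -1.02 when any 1 array was left out, and was -1.02 without TFEB KO mouse 1.

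Thbs4, the thrombospondin that muscle and tendon cells also make in response to injury (chr13:92751586-92794818), is of the same structural group as Comp. It read 11.18, 10.57 and 10.45 in TFEB KO muscle, against 10.75, 10.98 and 10.49 in WT muscle. The groups overlapped over most of their range, and TFEB KO mouse 1 was the highest array while TFEB KO mouse 3 was the lowest. The means were 10.73 ± 0.39 in TFEB KO and 10.74 ± 0.24 in WT muscle (SD, n = 3 each), a difference of -0.01 with a standard error of 0.20. Leaving out 1 array moved this difference between -0.24 (without TFEB KO mouse 1) and 0.13 (without TFEB KO mouse 3), so that its sign was not fixed.

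Thbs3, the remaining pentameric member (chr3:89215180-89226841), read 7.14, 6.63 and 6.57 in TFEB KO muscle, against 6.68, 6.55 and 6.14 in WT muscle. The groups overlapped, with TFEB KO mouse 1 above the others and WT mouse 3 below them. The means were 6.78 ± 0.31 in TFEB KO and 6.46 ± 0.29 in WT muscle (SD, n = 3 each), a difference of 0.32 with a standard error of 0.19, which was 0.14 without TFEB KO mouse 1. The 3 pentameric thrombospondins thus gave 1 gene lower on every TFEB KO array and 2 genes whose groups overlapped.

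Thbs1, the trimeric thrombospondin that platelets release and that activates latent TGF-beta (chr2:118111876-118127133), was read by 2 probe sets of its own. The brighter read 5.65, 6.56 and 6.12 in TFEB KO muscle, against 5.79, 5.79 and 5.93 in WT muscle. TFEB KO mouse 1 was the lowest of the 6 arrays and TFEB KO mouse 2 the highest, so the WT values lay inside the TFEB KO range. The means were 6.11 ± 0.45 in TFEB KO and 5.84 ± 0.08 in WT muscle (SD, n = 3 each), a difference of 0.27 (standard error 0.20) that ranged between 0.05 without TFEB KO mouse 2 and 0.50 without TFEB KO mouse 1.

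The dimmer Thbs1 probe set read 4.87, 5.41 and 5.06 in TFEB KO muscle, against 4.88, 4.73 and 4.90 in WT muscle. TFEB KO mouse 2 was again the highest array and the groups overlapped, with a difference of 0.28 (standard error 0.14). A further probe set annotated to both Pald1 and Thbs1 was left out of the members because its signal cannot be given to either gene. Its values were 7.75, 8.21 and 8.66 in TFEB KO muscle, against 7.62, 7.37 and 7.99 in WT muscle, which overlapped with a difference of 0.55 (standard error 0.23).

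Thbs2, the other trimeric member, which is made by fibroblasts (chr17:14665500-14694262), had 2 probe sets that differed. The brighter read 7.25, 7.59 and 7.35 in TFEB KO muscle, against 7.70, 7.38 and 7.55 in WT muscle. These groups overlapped, with means of 7.40 ± 0.17 in TFEB KO and 7.54 ± 0.16 in WT muscle (SD, n = 3 each) and a difference of -0.14 (standard error 0.12), or -0.07 without TFEB KO mouse 1. The dimmer read 6.73, 6.41 and 6.52 in TFEB KO muscle, against 7.30, 6.89 and 6.84 in WT muscle. It was lower on every TFEB KO array by a gap of 0.12, with a difference of -0.46 (standard error 0.14), so whether Thbs2 separated the groups depended on the probe set.

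Tnmd (chrX:133851008-133865577) read 8.67, 8.63 and 8.50 in TFEB KO muscle, against 9.08, 9.16 and 9.03 in WT muscle. Both groups were narrow and did not overlap, with a gap of 0.36 between them. The means were 8.60 ± 0.09 in TFEB KO and 9.09 ± 0.07 in WT muscle (SD, n = 3 each), a difference of -0.49 (standard error 0.09), or 1.40-fold lower. The difference stayed between -0.52 and -0.44 when any 1 array was left out, and was -0.52 without TFEB KO mouse 1.

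Scx (chr15:76457411-76459468), the tendon transcription factor on which Tnmd expression depends, read 5.65, 6.02 and 5.78 in TFEB KO muscle, against 6.00, 5.84 and 5.66 in WT muscle. The groups overlapped almost fully. The means were 5.82 ± 0.19 in TFEB KO and 5.84 ± 0.17 in WT muscle (SD, n = 3 each), a difference of -0.02 (standard error 0.13) that took either sign when 1 array was left out (-0.12 to 0.07) and was 0.01 after a second quantile normalization. The pair of tendon identity genes therefore differed, Tnmd being separated between the groups and Scx not.

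Chad (chr11:94565047-94569127) had the largest difference of the 11 probe sets. It read 5.85, 6.59 and 6.68 in TFEB KO muscle, against 7.33, 7.62 and 8.20 in WT muscle. The groups did not overlap, but both were wide, with TFEB KO mouse 1 the lowest array and WT mouse 3 the highest. The means were 6.37 ± 0.45 in TFEB KO and 7.72 ± 0.44 in WT muscle (SD, n = 3 each), a difference of -1.34 (standard error 0.27), or 2.54-fold lower. Without TFEB KO mouse 1 the difference was -1.08, and the lowest value with 1 array left out was -1.54.

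Tnc (chr4:63959785-64047015) read 6.46, 6.20 and 6.01 in TFEB KO muscle, against 6.69, 6.83 and 6.66 in WT muscle. The groups did not overlap, with a gap of 0.20, and TFEB KO mouse 1 was the closest to the WT arrays. The means were 6.22 ± 0.23 in TFEB KO and 6.72 ± 0.09 in WT muscle (SD, n = 3 each), a difference of -0.50 (standard error 0.13), or 1.42-fold lower. It was -0.62 without TFEB KO mouse 1.

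**Figure D2:**
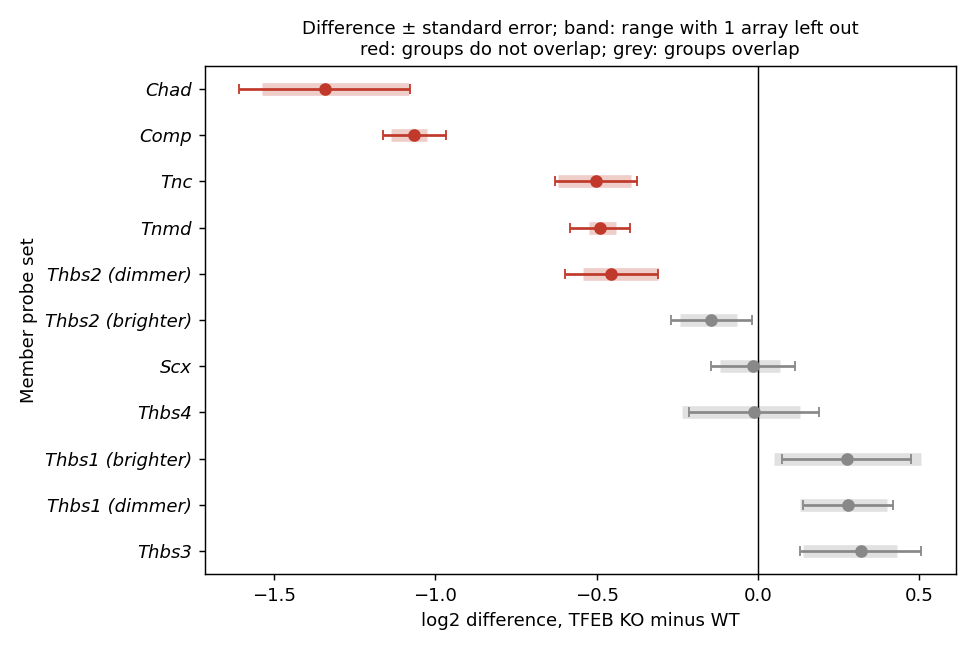
Log2 difference between TFEB KO and WT muscle (horizontal axis, negative means lower in TFEB KO) for each member probe set, with its standard error (line) and the range when any 1 of the 6 arrays is left out (band). Red marks the 5 probe sets whose groups do not overlap, from Chad at -1.34 to the dimmer Thbs2 probe set at -0.46, and grey marks the 6 that overlap.

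The members did not follow a single profile across the 6 arrays. TFEB KO mouse 1 lay 0.68 above the WT mean for Thbs3 and 0.44 above it for Thbs4, whereas its distance from the WT mean was -1.86 for Chad. When each gene was centred on its own mean over the 6 arrays, the closest members were Tnmd and Tnc, with a root mean square difference of 0.09 on the log2 scale, and then Thbs2 and Scx with 0.12 and Thbs3 and Thbs4 with 0.20. The most distant pair was Thbs3 and Chad, at 1.03. Both these distances and the values against the WT mean include the difference between the groups, which was -1.34 for Chad and 0.32 for Thbs3. They therefore do not isolate variation between mice of a group. The distances compare 6 arrays and carry no test.

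The genes whose profile lay nearest to a member by the same measure were taken from the 12393 genes after the 9 members were removed. For Comp these were Gm15510 (0.116), Fgfbp1 (0.117), whose protein releases fibroblast growth factors from the matrix, and Bcl6b (0.127), a transcriptional repressor. For Tnmd they were Phtf1 (0.043), the alanine aminotransferase gene Gpt (0.046) and the inositol trisphosphate receptor gene Itpr3 (0.048). For Thbs4 they were the phospholipase gene Pla2g2d (0.055), Sec16b (0.067), of export from the endoplasmic reticulum, and the small GTPase gene Mras (0.070). For Thbs1 they were the acute phase gene Saa1 (0.096), Cep57l1 (0.097) and the autophagy gene Gabarapl1 (0.099). Pla2g2d, Sec16b and Saa1 were dim, at percentiles 24.9, 17.7 and 25.4 of brightness, whereas Thbs4 was at 93.8. With 6 arrays, a low distance among so many genes says only that these profiles look alike here.

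Other genes in 6 lists, none of them members, were set beside these results, each gene by its brightest probe set. The lists were written by function with earlier results of these data known. Their counts and p-values are therefore no independent support for the members. Across all genes, 0.702% were past the threshold and lower in TFEB KO muscle, and 0.871% were past it and higher (limma, adjusted p below 0.05). The share of all genes with an unadjusted p below 0.05 by limma was not counted. List and marker counts at that level, here and below, therefore have no rate to be set against. They do not show that a list held more such genes than others. In the list of tendon transcription factors and growth factors, 0 of 15 measured genes passed in either direction by limma, while 2 lower and 1 higher had an unadjusted p below 0.05. The median difference of the list was 0.07. The smallest p-values were those of Etv5, an ETS factor downstream of fibroblast growth factors, at -0.52 (standard error 0.12, adjusted p = 0.068 by limma), and of Tgif1, a repressor of TGF-beta signalling, at 0.66 (standard error 0.22, adjusted p = 0.17 by limma). Without TFEB KO mouse 1, Tgif1 passed the test (adjusted p = 0.040 by limma).

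Of the tendon and ligament matrix list, 1 of 30 measured genes fell, 0 rose, and the median difference was 0.14. The gene that fell was fibromodulin (Fmod), a proteoglycan that controls the thickness of collagen fibrils in tendon. It read 9.51, 9.24 and 9.57 in TFEB KO muscle, against 10.63, 10.59 and 11.22 in WT muscle. The groups did not overlap, and the difference was -1.37 (standard error 0.18, adjusted p = 0.017 by limma), or 2.58-fold lower. All 6 Fmod probe sets passed, with differences between -1.43 and -0.98, though the brightest did not pass without TFEB KO mouse 2 (adjusted p = 0.062 by limma) or without WT mouse 1 (0.065).

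TFEB KO mouse 1 stood apart in this list, with a summed log2 level of 15.29. The sum was 14.63 and 14.65 in TFEB KO mice 2 and 3 and 14.70 to 14.98 in WT muscle. Its array also had the highest of the 6 sums for the tenascin (11.53) and other matricellular (13.34) lists. The same held for macrophage (13.00), fibroblast (13.99), platelet (10.10) and red blood cell (7.54) markers. Without that array 4 of the 30 genes fell, the other three being genes named after their values were seen. Keratocan (Kera), a tendon and cornea proteoglycan, was then at -1.15 (adjusted p = 0.011 by limma), and was at -0.92 with all arrays (adjusted p = 0.055). The type I collagen genes, which encode the main fibril of tendon, were then at -1.19 for Col1a1 (adjusted p = 0.011) and at -1.02 for Col1a2 (adjusted p = 0.016). With all 6 arrays they were at -0.82 (adjusted p = 0.19) and -0.74 (adjusted p = 0.14). The list did not lie on one side, with 13 of its 30 genes below 0 and 17 above. With all arrays 7 were lower and 5 higher at an unadjusted p below 0.05 by limma. Of the 7 lower, only Col1a1 overlapped between the groups, and of the 5 higher, Mfap5 (0.61), Aspn (0.52) and Dcn (0.26) did not. Lumican (Lum), a proteoglycan related to Fmod, was at 0.44 and the type III collagen gene Col3a1 at 0.33 with overlapping groups.

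Of the cartilage list, 3 of 21 measured genes fell, 0 rose, and the median difference was -0.07. Below 0 lay 18 genes and above it 3, and 4 were lower and 0 higher at an unadjusted p below 0.05 by limma. Col9a1, a chain of the type IX collagen that coats cartilage fibrils, read 5.28, 5.57 and 5.64 in TFEB KO muscle, against 6.53, 6.44 and 6.89 in WT muscle, a difference of -1.12 without overlap (standard error 0.15, adjusted p = 0.017 by limma). Col11a2, a chain of type XI collagen, was at -0.73 (standard error 0.10, adjusted p = 0.020 by limma). Matn2, a matrilin of many connective tissues, was at -0.75 (standard error 0.12, adjusted p = 0.028 by limma). Sox9, the factor that sets up cartilage identity, was at 0.08 and Acan, the main cartilage proteoglycan, at -0.04, both with overlapping groups.

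Of the 21 cartilage genes, 9 lay among the dimmest 25% of probe sets. None of the 3 passed without TFEB KO mouse 2 or without WT mouse 1, where the adjusted p was 0.060 and 0.072 for Col9a1, 0.067 and 0.090 for Col11a2, and 0.081 and 0.115 for Matn2 (limma). Col11a2 also did not pass without TFEB KO mouse 3 (adjusted p = 0.050) or WT mouse 3 (0.069), nor Matn2 without TFEB KO mouse 3 (0.080) or WT mouse 2 (0.102). Of the second probe sets of Col9a1 and Matn2, at -0.44 and -0.22, neither passed.

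Of 20 measured thrombospondin receptors and partners, 1 fell, 0 rose, and the median difference was -0.01. The gene that fell was Itga6, the integrin subunit by which cells hold laminin and some thrombospondins. It read 7.62, 7.77 and 7.85 in TFEB KO muscle, against 8.55, 8.51 and 8.59 in WT muscle, a difference of -0.80 without overlap (standard error 0.09, adjusted p = 0.015 by limma), and both of its 2 probe sets passed. It did not pass without TFEB KO mouse 2 (adjusted p = 0.055), WT mouse 1 (0.071) or WT mouse 2 (0.056). The main cell surface receptors of Thbs1 did not pass the test. Cd36, which also takes up fatty acids, was at 0.30 (adjusted p = 0.18 by limma) and was higher on every TFEB KO array than on any WT array. Cd47, the signal that restrains phagocytes, was at -0.09 with overlapping groups (adjusted p = 0.81 by limma).

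Of 8 measured tenascins and tenascin receptors, 1 rose and 0 fell. It was Tlr4, an innate immune receptor that Tnc can activate, with 6.03, 6.54 and 6.49 in TFEB KO muscle and 5.65, 5.40 and 5.18 in WT muscle. The groups did not overlap, the difference was 0.94 (standard error 0.17, adjusted p = 0.042 by limma), and its second probe set, at 0.53, did not pass. Of 17 other matricellular proteins, 1 rose, 0 fell, and the median difference was -0.01. It was Mgp, an inhibitor of calcification in cartilage and vessels, at 0.58 (standard error 0.10, adjusted p = 0.041 by limma). When 1 array was left out, Tlr4 and Mgp each passed without TFEB KO mouse 1 (adjusted p = 0.018 for Tlr4 and 0.039 for Mgp), and neither did without any other array. Without TFEB KO mouse 1, Ccn1, a matricellular protein induced by mechanical load, was also higher, at 1.35 (adjusted p = 0.028 by limma), and Sparc, a collagen-binding protein, was lower, at -0.60 (adjusted p = 0.035). With all 6 arrays they were at 0.80 and -0.28 and overlapped between the groups.

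**Figure D3:**
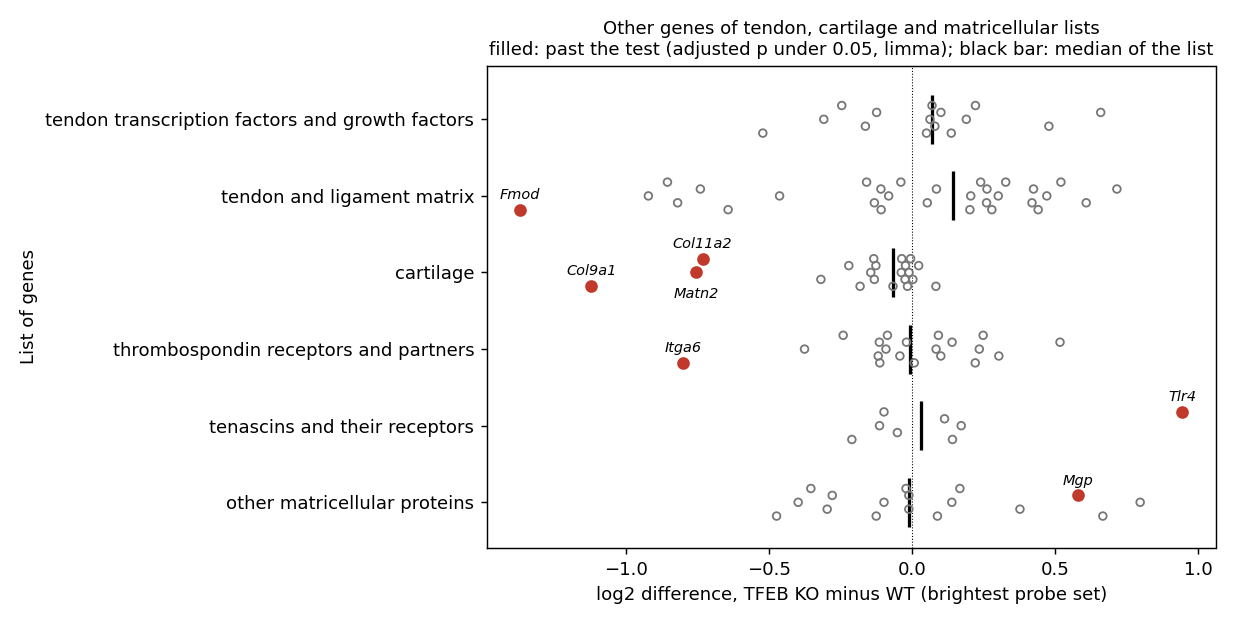
Log2 difference between TFEB KO and WT muscle (horizontal axis) of the genes of 6 lists that are not members, 1 circle per gene by its brightest probe set. Filled red circles passed the test (Fmod, Col9a1, Col11a2, Matn2 and Itga6 lower, Tlr4 and Mgp higher), and the black bar is the median of the list, which lies between -0.07 for cartilage and 0.14 for tendon and ligament matrix.

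Markers of other cells also moved between the groups. Of 12 macrophage markers 5 rose, 0 fell and the median difference was 1.00, with a log2 summed level of 12.27 to 13.00 in TFEB KO and 10.89 to 11.74 in WT muscle. Of 9 endothelial markers 5 fell, 0 rose and the median difference was -0.72, with 10.67 to 10.80 in TFEB KO and 11.29 to 11.42 in WT muscle. With any 1 array left out, these calls were few. They were 0 to 2 macrophage markers (0 without TFEB KO mouse 2 or WT mouse 2) and 0 to 3 endothelial markers (0 without WT mouse 1 or WT mouse 2). With all arrays, all 12 macrophage markers lay above 0, and 11 were higher at an unadjusted p below 0.05 by limma. All 9 endothelial markers lay below 0, and 8 were lower at that level. The sums of both lists did not overlap between the groups. Fibroblast markers did not pass the test, at 0 of 10 (by limma, with 1 lower and 5 higher at an unadjusted p below 0.05), but their sums did not overlap, at 13.58 to 13.99 in TFEB KO and 13.25 to 13.54 in WT muscle. Fibroblasts and tendon cells share many of these matrix genes, 3 of the 10 markers (Dcn, Fbln1 and Mfap5) are also in lists above, and the highest sum was that of TFEB KO mouse 1. Bright genes weigh most in a sum, and Dcn alone read 12.95 to 13.16 in TFEB KO and 12.67 to 12.92 in WT muscle. Of the 10 markers 8 lay above 0 and 2 below, and Fbln1 (-0.35) was lower on every TFEB KO array than on any WT array.

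The sums of the other lists overlapped. Platelet markers, listed because platelets carry Thbs1, had a sum of 9.49 to 10.10 in TFEB KO and 9.17 to 9.64 in WT muscle. Bone markers had 7.56 to 7.70 in TFEB KO and 7.62 to 8.04 in WT muscle, red blood cell markers 6.97 to 7.54 in TFEB KO and 7.30 to 7.51 in WT muscle, and satellite cell markers 8.36 to 8.62 in TFEB KO and 8.29 to 8.40 in WT muscle. By limma, 0 markers passed among 7 for platelets, 4 for bone, 4 for red blood cells, 5 for satellite cells and 10 for muscle fibers, while 0, 1, 0, 1 and 1 were lower and 1, 1, 0, 0 and 0 higher at an unadjusted p below 0.05. The part of these cell types in the differences of Comp, Tnmd, Chad, Tnc and Thbs2 was not tested.

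**Figure D4:**
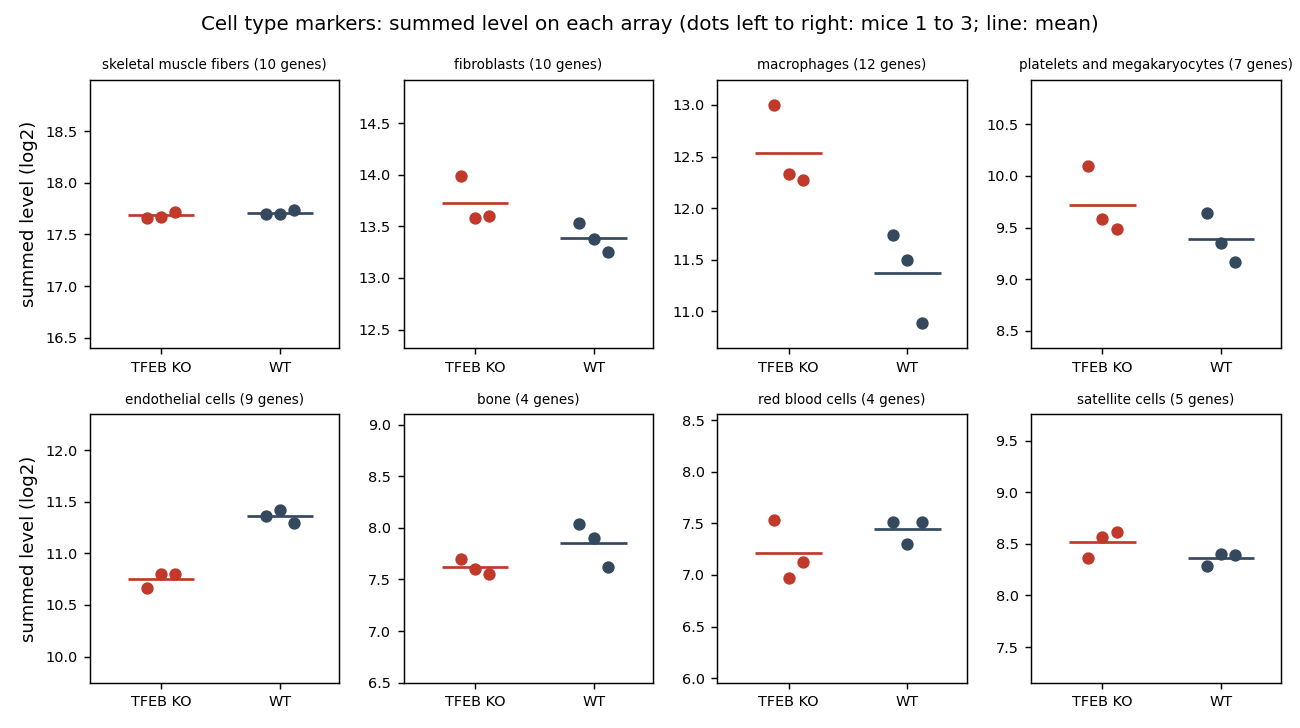
Log2 of the summed level of the markers of 8 cell types (vertical axis, each panel spanning the same range) on each TFEB KO array (red, left) and WT array (blue, right), with the mean as a line. Macrophage and fibroblast sums are higher and endothelial sums lower on every TFEB KO array, and the other 5 overlap.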

How the data were processed

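RNA from the muscle of 3 TFEB KO and 3 WT mice was hybridized to Affymetrix arrays, 1 array per mouse. The authors made the deposited log2 values, 1 for each probe set on each array, with RMA and the R package affy, which the submitters' processing notes name without versions. RMA equalizes the arrays, which takes out most of any change common to the majority of genes. Detection calls were not used here. No depth can be given for arrays, and their number sets the precision.

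The table held 22690 probe sets. After removal of 64 controls, limma 3.58.1 was fitted to the other 22626 in R 4.3.3 (functions lmFit and eBayes), with two-sided p-values adjusted by Benjamini-Hochberg over all of them and a threshold of 0.05. The platform annotation named 1 gene for 20380 probe sets, several for 691 and none for 1555. Of the 20380, 20364 were found by Entrez ID in the RefSeq table, which changed 0 symbols. A gene was read by its brightest probe set over the 6 arrays. A summed level is the log2 of the sum of the unlogged values of a list. Promoters were from RefSeq on GRCm38.p6. The fit was tested on simulated data. Tables were handled with Python 3.11.15, pandas 2.3.3 and NumPy 2.4.6 and drawn with matplotlib 3.10.9.

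The members and lists were chosen with earlier results of these data known. The genes named are all 9 members, up to 4 genes past the test in each of 6 lists (or the 2 with the smallest p where none passed), the 3 genes most like each of 4 members (Comp, Thbs1, Thbs4 and Tnmd) and Tfeb. Kera, Col1a1, Col1a2, Lum, Col3a1, Mfap5, Aspn, Dcn, Fbln1, Sparc, Ccn1, Sox9, Acan, Cd36 and Cd47 fall outside this rule, having been named once their values had been seen. Alternatives were quantile normalization of the arrays once more, scaling to a common 75th percentile, removal of the dimmest 25% of probe sets, trended and robust moderation, a replicate block, the methods' t-test, averaging the probe sets of each gene, and leaving out each array in turn.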

Additional observations from a re-analysis of the deposited data

How the results depend on the processing

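The signs of the Thbs4 and Scx differences, both near 0, were not fixed. Moderation, the filter on dim probe sets and the replicate block leave a difference as it is by construction. With 1 array left out the differences ranged between -1.14 and -1.02 for Comp, 0.05 and 0.50 for Thbs1, -0.24 and -0.07 for Thbs2, 0.14 and 0.43 for Thbs3, -0.24 and 0.13 for Thbs4, -0.52 and -0.44 for Tnmd, -0.12 and 0.07 for Scx, -1.54 and -1.08 for Chad, and -0.62 and -0.39 for Tnc.

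Counts of calls depended on the setting. With all arrays 170 probe sets were higher and 191 lower in TFEB KO muscle, and 2 member probe sets passed. After a second quantile normalization 3 member probe sets passed, and with dim probe sets left out 3 did. With 1 array left out, 17 to 235 were higher and 4 to 203 lower (235 and 203 without TFEB KO mouse 1, 17 and 4 without WT mouse 1). Over the same settings 1 to 2 member probe sets passed, Comp each time and Tnc as well without TFEB KO mouse 1, whereas Tnmd passed in none. Of the lists, the numbers passing were 0 to 1 higher tendon factors, 0 to 4 lower tendon matrix genes, 0 to 3 lower cartilage genes, 0 to 1 lower thrombospondin receptors, 0 to 1 higher tenascin genes, and 0 to 2 higher and 0 to 1 lower matricellular genes.

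The labels do not say whether the replicate numbers pair the mice. Same-numbered deviations from the group mean correlated at 0.088, 0.048 and 0.265. These values cannot settle it, as differently numbered arrays were not compared. With the replicate block 173 probe sets were higher and 124 lower, and 2 tendon matrix genes lower, 0 tenascin genes higher and 0 matricellular genes higher passed. Trended and robust moderation called 2 tendon matrix genes lower, and averaging the probe sets of each gene 1 tendon factor and 4 tendon matrix genes lower. The study names Student's test for its results in general, and the test used for its arrays is not given in the text used here. This methods' t-test without adjustment called 1338 probe sets higher and 1944 lower, 4 of them members, and 2 tendon factors, 5 tendon matrix genes, 2 receptors and 3 matricellular genes lower and 2 receptors higher. After adjustment it called 0 higher and 1 lower, and 0 members, 0 tendon matrix, 0 cartilage, 0 receptor, 0 tenascin and 0 matricellular genes. The causes were not tested.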
